A study of Mus musculus with 6 samples.

Results

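The genes described here are 10 immediate early genes: Fos, Fosb and Fosl2 of the Fos family, Jun, Junb and Jund of the Jun family, and Egr1, Ier2, Dusp1 and Atf3. They were taken by symbol from an expression array of jejunal mucosa, where each had exactly 1 row carrying its symbol alone, so all 10 were measured among 19938 genes in all. There were 3 arrays for ISR2 and 3 for wild type littermates. The mucosa was scraped from the jejunum of mice of the C57/BL strain, aged 8 to 10 weeks, fed regular chow and housed under alternating light and dark. ISR2 is, by the labels and title, a transgenic line with overactive SREBP2, the factor that drives genes of cholesterol synthesis, in the intestine. The promoter and form of the transgene, the hour of collection and the time from death to RNA extraction are not stated there. Whether the arrays are of different mice is not labelled; p-values therefore rest on the spread between these samples, which may be technical, and the small number of arrays limits the precision.

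Immediate early genes are transcribed within minutes of a stimulus, without new protein synthesis. A growth factor such as an EGF family ligand activates its receptor, the signal passes through Ras and the MAP kinases, and kinases then act on factors already bound at these promoters. Fos and Jun proteins pair through leucine zippers to form AP-1, which binds DNA and switches on a later set of genes; Jun proteins can pair with one another, Fos proteins need a Jun partner. The transcripts are short-lived, and they are known to respond to handling of tissue as well as to signals in the living animal.

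All values are log2 expression on the scale of the RMA method, and differences are ISR2 minus wild type on that scale. Srebf2, the gene of the overactive factor, was at 9.04, 9.15 and 9.50 in wild type replicates 1, 2 and 3 and at 11.02, 10.85 and 11.16 in ISR2 replicates 1, 2 and 3, which goes with the group labels. Epithelium markers were bright on every array (list mean 11.76 to 12.15). Wild type replicate 2 and ISR2 replicate 2 stood apart by their smooth muscle and stroma list means, 9.47 and 8.87 against 7.11 to 7.75 on the other 4 arrays. In ISR2 replicate 2 the smooth muscle genes carried this, such as Des (10.52 against 7.93 and 8.26 in ISR2 replicates 1 and 3). Of the stroma genes, Lum was highest in ISR2 replicate 2 among ISR2 arrays, while Col1a1, Col1a2, Col3a1 and Pdgfra were lowest. The differences of the 10 genes are therefore also given without the arrays numbered 2 of both groups, a choice made after seeing the data. In bulk mucosa, fewer cells of a type and less RNA per cell cannot be told apart.

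Fosb and Jun were lower in ISR2 mucosa, by 2.66-fold and 2.28-fold, and they were the only ones of the 10 genes to pass an adjusted p of 0.05 in limma (Benjamini-Hochberg over all genes). None of the 10 rose, and none was higher at an unadjusted p under 0.05. Over all genes, 3.02% passed by the same rule, 1.23% downwards and 1.79% upwards, and 4.73% were higher and 8.4% lower at an unadjusted p under 0.05. Dusp1 and Fosl2 also had every ISR2 array below every wild type array but did not pass, while Fos, Junb, Jund, Egr1, Ier2 and Atf3 overlapped between the groups. Such complete separation downwards thus held for 4 of the 10 genes, and for 13.9% of all genes; separation upwards held for 0 of the 10 and for 5.87% of all genes. The median difference of the 10 genes was -0.22, beside -0.06 for all genes tested, and 7 of the 10 were lower in the ISR2 mean, as were 62.6% of all genes.

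**Figure D1:**
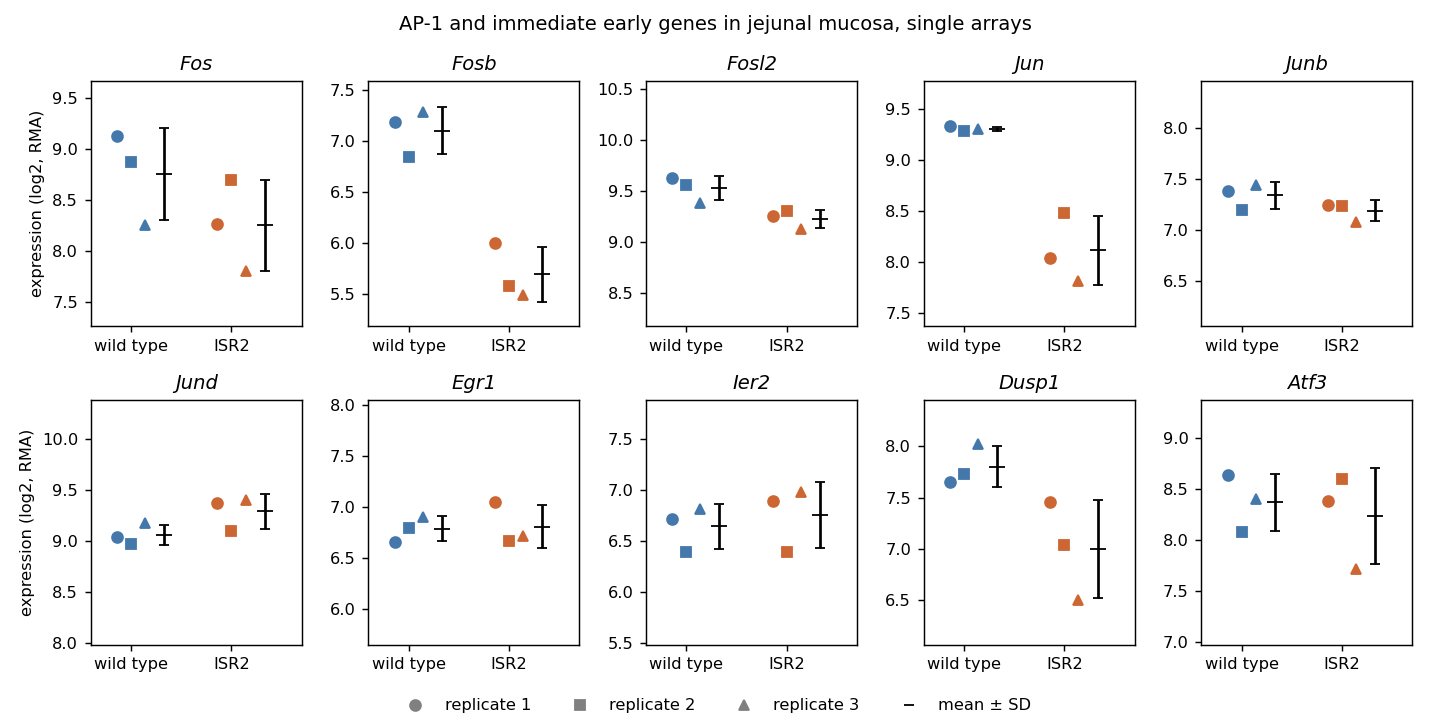
Expression of the 10 genes on single arrays (vertical axis, log2 RMA value, the same span in every panel), with wild type in blue and ISR2 in orange, marker shapes for replicate numbers, and bars for mean ± SD (n = 3). The groups are apart for Jun (9.28 to 9.33 against 7.81 to 8.48) and Fosb (6.84 to 7.28 against 5.49 to 6.0) and overlap for Fos, Junb, Jund, Egr1, Ier2 and Atf3.

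The stretches of DNA just before the starts of 3 of the genes with separated groups, Jun, Fosb and Dusp1, are shown with that of Fos, whose groups overlapped. Each is the 250 bases before the start of the gene in RefSeq on GRCm38.p6, read 5′ to 3′ on the strand of the gene: chr4:95052223-95052472 (minus strand) for Jun, chr7:19310046-19310295 (minus strand) for Fosb, chr17:26508473-26508722 (minus strand) for Dusp1 and chr12:85473640-85473889 (plus strand) for Fos. Capitals mark matches on either strand to TGACATCA, TGACGTCA or TGACG, the last of which also lies inside TGACGTCA.
Jun promoter: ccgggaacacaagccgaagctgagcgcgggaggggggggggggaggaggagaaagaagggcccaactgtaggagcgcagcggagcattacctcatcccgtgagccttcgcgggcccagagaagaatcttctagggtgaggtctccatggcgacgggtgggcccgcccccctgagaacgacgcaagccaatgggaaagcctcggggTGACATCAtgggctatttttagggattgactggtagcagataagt
Fosb promoter: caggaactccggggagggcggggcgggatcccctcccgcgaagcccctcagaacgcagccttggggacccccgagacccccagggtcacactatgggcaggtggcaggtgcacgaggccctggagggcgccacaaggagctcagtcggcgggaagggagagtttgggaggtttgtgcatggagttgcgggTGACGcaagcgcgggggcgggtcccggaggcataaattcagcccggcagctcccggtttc
Dusp1 promoter: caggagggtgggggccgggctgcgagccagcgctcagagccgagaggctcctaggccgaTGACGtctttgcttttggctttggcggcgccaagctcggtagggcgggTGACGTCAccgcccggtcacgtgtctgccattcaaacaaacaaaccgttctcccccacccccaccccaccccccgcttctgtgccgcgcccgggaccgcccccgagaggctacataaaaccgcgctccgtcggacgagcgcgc
Fos promoter: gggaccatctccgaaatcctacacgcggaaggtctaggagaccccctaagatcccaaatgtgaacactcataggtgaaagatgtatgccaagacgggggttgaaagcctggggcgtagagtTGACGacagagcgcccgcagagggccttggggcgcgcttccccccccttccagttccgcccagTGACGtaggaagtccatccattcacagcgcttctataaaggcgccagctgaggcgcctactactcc
TGACATCA, known from the Jun promoter as a variant AP-1 site, was found 45 bases before the start of Jun and in 2.93% of all 32851 promoter windows of this length. TGACGTCA, the full cyclic AMP response element, occurred at -143 in Dusp1 and in 1.55% of all windows. Its shorter form TGACG was present in Fosb at -60, in Fos at -129 and -66, and in Dusp1 at -191 and -143, and also in Atf3 and Junb; 17.8% of all windows held it. The consensus AP-1 site TGACTCA (4.46% of all windows) and the CArG box bound by serum response factor (1.47%) were in none of the 8 windows of these genes that the table held, Egr1 and Ier2 not being among them. The letters describe these windows only. Sites farther than 250 bases before the start were not searched, so a gene without a match here may have one there. The expression data do not show which sites were bound.

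Among the Fos family genes, Fosb had the largest difference. Fosb, which encodes an AP-1 subunit that pairs with Jun proteins, stood at 7.18, 6.84 and 7.28 in wild type replicates 1, 2 and 3 and at 6.0, 5.58 and 5.49 in ISR2 replicates 1, 2 and 3. The groups were well apart, with the highest ISR2 array far below the lowest wild type array. The difference was -1.41 ± 0.18 (SE, 3 arrays per group; 95% interval -1.81 to -1.01; adjusted p = 0.00245 in limma), from 7.10 ± 0.23 to 5.69 ± 0.27 (mean ± SD, n = 3). It passed in all 6 fits without 1 array each (-1.57 to -1.31; adjusted p up to 0.0193), and it was -1.49 with the arrays numbered 2 left out (adjusted p = 0.00813). The ISR2 level was below the median level of all genes tested (6.40), and no background value was used, so the measured fold may be a lower bound.

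Fos, the founding member of the family, was at 9.13, 8.87 and 8.25 in wild type replicates 1, 2 and 3 and at 8.26, 8.70 and 7.80 in ISR2 replicates 1, 2 and 3. The groups overlapped: wild type replicate 3 was at the level of ISR2 replicate 1, and ISR2 replicate 2 was above both. The difference was -0.50 ± 0.27 (SE; 95% interval -1.11 to 0.11; adjusted p = 0.499 in limma). Without wild type replicate 3 and ISR2 replicate 2 together it was -0.97 ± 0.19 and passed (adjusted p = 0.0341). That pair is the lowest wild type and the highest ISR2 array for Fos itself. Leaving it out had to enlarge the fall, so this pass is no evidence for it. The Fos difference did not pass in any of the 6 fits without 1 array (-0.75 to -0.27).

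Fosl2, which encodes Fra-2, was at 9.63, 9.56 and 9.39 in wild type and at 9.26, 9.31 and 9.13 in ISR2 replicates 1, 2 and 3. The ISR2 arrays were all lower, but by little: the closest arrays of the groups were 9.39 and 9.31. The difference of -0.30 ± 0.13 (SE; 95% interval -0.58 to -0.01) had an unadjusted p of 0.0443 and an adjusted p of 0.364 in limma. Fosl2 had a smaller within-group SD than most genes on the array, at the 16.0th percentile of all genes tested, whereas that of Fos was at the 96.1st.

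Of the Jun family, Jun was the member that fell. Jun, which encodes the AP-1 subunit c-Jun, was at 9.33, 9.28 and 9.30 in wild type replicates 1, 2 and 3, an SD of 0.02, and at 8.04, 8.48 and 7.81 in ISR2 replicates 1, 2 and 3. The wild type arrays were nearly identical and the ISR2 arrays were both lower and more spread. The difference was -1.19 ± 0.17 (SE; 95% interval -1.58 to -0.80; adjusted p = 0.00539 in limma), from 9.30 ± 0.02 to 8.11 ± 0.34 (mean ± SD, n = 3). It passed in all 6 fits without 1 array each (-1.38 to -1.04; adjusted p up to 0.0398) and was -1.39 with the arrays numbered 2 left out (adjusted p = 0.0038).

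Junb, which encodes a Jun protein often opposed to c-Jun in its effects on growth, was at 7.38, 7.20 and 7.44 in wild type and at 7.25, 7.24 and 7.08 in ISR2 replicates 1, 2 and 3. The difference was -0.15 ± 0.13 (SE; 95% interval -0.44 to 0.14; adjusted p = 0.699 in limma). Jund, the most steadily expressed of the family in most tissues, was at 9.04, 8.97 and 9.18 in wild type and at 9.37, 9.10 and 9.40 in ISR2 replicates 1, 2 and 3. Its ISR2 mean was the higher one, by 0.23 ± 0.14 (SE; 95% interval -0.08 to 0.53; adjusted p = 0.558), and ISR2 replicate 2 lay among the wild type arrays. The intervals of Junb and Jund both leave out a drop as large as that of Jun.

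Whether the members of a family changed unequally was read from the difference between their log2 values on the same array, which shared scaling cannot alter. Over the 6 pairs within the families, compared after the values were seen, 5 had groups that did not overlap. All of the 5 except Junb minus Jund contain Fosb or Jun, so they partly restate the falls of those genes. The share of other gene pairs that separate was not computed. For single genes it was 13.9% downwards and 5.87% upwards. Jun minus Jund ran from 0.12 to 0.31 in wild type and from -1.59 to -0.62 in ISR2, a shift of -1.42 between groups. Jun minus Junb shifted by -1.04, from 1.85 to 2.08 in wild type to 0.74 to 1.24 in ISR2. Fosb minus Fosl2 shifted by -1.11 and Fos minus Fosb by 0.91. Junb minus Jund shifted by -0.38, and Fos minus Fosl2, whose groups overlapped, by -0.20. For each of the 5 the two-sided exact permutation p was 0.1, the smallest that 3 arrays against 3 can give (0.12 adjusted over the 6 pairs), so this design cannot reach 0.05 by that test.

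**Figure D2:**
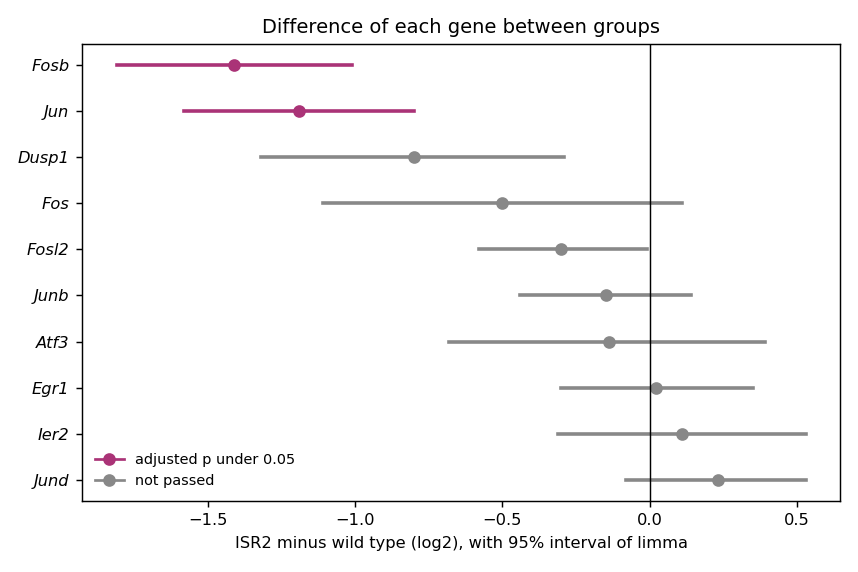
Difference between groups for the 10 genes (horizontal axis, ISR2 minus wild type in log2 units), with points for limma's estimate and lines for its 95% interval over 3 arrays per group. Fosb (-1.41) and Jun (-1.19), in purple, passed an adjusted p of 0.05; the interval of Dusp1 (-1.32 to -0.29) and that of Fosl2 (-0.58 to -0.01) lie below 0 without passing after adjustment.

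Dusp1, which encodes a phosphatase that switches off MAP kinases, had the next largest difference. It was at 7.65, 7.73 and 8.02 in wild type replicates 1, 2 and 3 and at 7.46, 7.03 and 6.50 in ISR2 replicates 1, 2 and 3. The ISR2 arrays were all below wild type, yet they were widely spread and ISR2 replicate 1 lay close to wild type replicate 1. The difference of -0.80 ± 0.23 (SE; 95% interval -1.32 to -0.29) had an unadjusted p of 0.00652 and an adjusted p of 0.133 in limma. Without 1 array at a time it was -1.03 to -0.55 (adjusted p 0.0615 to 0.3), so no fit passed. Its within-group SD was at the 91.8th percentile of all genes.

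Egr1, which encodes a zinc finger factor induced through serum response factor, was at 6.66, 6.80 and 6.90 in wild type and at 7.05, 6.67 and 6.72 in ISR2 replicates 1, 2 and 3. The groups overlapped throughout, with a difference of 0.02 ± 0.15 (SE; 95% interval -0.30 to 0.35; adjusted p = 0.971 in limma) that was -0.10 to 0.10 without 1 array at a time. The interval leaves out drops as large as those measured for Jun and Fosb. Ier2, a small nuclear protein gene of the same early wave, was at 6.72, 6.40 and 6.82 in wild type and at 6.90, 6.40 and 6.98 in ISR2 replicates 1, 2 and 3. Its difference was 0.11 ± 0.18 (SE; 95% interval -0.31 to 0.53; adjusted p = 0.87), and the arrays numbered 2 were the lowest of both groups.

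Atf3, a stress-induced factor that pairs with Jun proteins, was at 8.64, 8.08 and 8.40 in wild type and at 8.38, 8.60 and 7.71 in ISR2 replicates 1, 2 and 3. ISR2 replicate 3 alone lay below the wild type range. The difference was -0.14 ± 0.24 (SE; 95% interval -0.68 to 0.39; adjusted p = 0.871 in limma), and it was 0.12 without ISR2 replicate 3.

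The arrays differed in how many of the 10 genes they held at the extremes. ISR2 replicate 3 was the lowest of the 6 arrays for 7 of the 10 genes, namely Fos, Fosb, Fosl2, Jun, Junb, Dusp1 and Atf3, and the highest for Jund and Ier2. Averaged over the 10 genes, each centred on its own mean, ISR2 replicates 1, 2 and 3 stood at -0.07, -0.15 and -0.40, and the wild type replicates at 0.27, 0.11 and 0.24. Without ISR2 replicate 3, Fosb still differed by -1.31 (adjusted p = 0.0111) and Jun by -1.04 (adjusted p = 0.0161), whereas Dusp1 differed by -0.55 and Fos by -0.27. With the arrays numbered 2 left out, 0 of the 8 genes other than Fosb and Jun passed (adjusted p 0.275 to 0.844). The differences were then -0.66 for Fos, -0.32 for Fosl2, -0.25 for Junb, 0.28 for Jund, 0.10 for Egr1, 0.17 for Ier2, -0.85 for Dusp1 and -0.48 for Atf3. The within-group spread was uneven among the 10 genes: 5 were in the upper 25% of all genes by within-group SD (Fos, Fosb, Ier2, Dusp1 and Atf3) and 2 in the lower 25% (Fosl2 and Junb).

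Of the genes that are not among the 10, those nearest the mean centred profile of the 10 over the 6 arrays were Krt20, Slfn2, Zfp558, Il12rb2 and Prss51. Their root mean square differences from it were 0.052, 0.053, 0.054, 0.055 and 0.060 log2 units, among 5644 genes that varied at least as much as the profile (SD 0.26). Krt20, a keratin of mature enterocytes, was at 12.78, 12.69 and 12.78 in wild type and at 12.36, 12.34 and 12.16 in ISR2 replicates 1, 2 and 3. Il12rb2 encodes a chain of the interleukin-12 receptor. None of the 5 passed in limma (adjusted p 0.0981 to 0.301).

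Among the EGF family ligands and receptors, 1 gene, Hbegf, also fell. Its relation to the falls of Jun and Fosb was not tested. Hbegf, which encodes an EGF receptor ligand shed from the cell surface, was at 8.68, 8.22 and 8.12 in wild type replicates 1, 2 and 3 and at 6.87, 7.29 and 6.94 in ISR2 replicates 1, 2 and 3. The groups were far apart, and the difference was -1.31 ± 0.18 (SE; adjusted p = 0.00441 in limma), a 2.47-fold fall that passed in all 6 fits without 1 array each. It was the only one of 12 measured EGF family ligands and receptors to pass. Egfr, the receptor itself, differed by -0.53 ± 0.15 (SE; adjusted p = 0.145), Erbb3 by -0.43 ± 0.15 (adjusted p = 0.244) and Erbb2, the partner receptor, by -0.37 ± 0.16 (adjusted p = 0.377). The median of the list was -0.18. With array weights, Egfr and Erbb3 passed as well (adjusted p = 0.0457 and 0.0336 in limma).

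Transcripts of the kinases and of the factors that carry the signal to the promoters held no call. Kinase activity was not measured. Of 16 measured genes of the MAP kinase cascade (of 23 listed), 0 passed in limma and 0 had an unadjusted p under 0.05; differences ran from -0.23 to 0.19, with a median of -0.06. The smallest p-values were those of the p38 kinase gene Mapk14 (-0.20 ± 0.14, SE), Braf (0.19 ± 0.15), the kinase gene Mapk8 of JNK1, which phosphorylates c-Jun (-0.17 ± 0.15), and Map2k6 (-0.23 ± 0.21). Of 13 factors that act on immediate early promoters, 0 passed and 1 had an unadjusted p under 0.05. That was Srf, the gene of serum response factor, at 8.03, 8.57 and 8.19 in wild type and 9.11, 8.58 and 8.96 in ISR2 replicates 1, 2 and 3. Srf thus differed by 0.62 ± 0.19 (SE; adjusted p = 0.157), and by 0.93 with the arrays numbered 2 left out, where it passed (adjusted p = 0.0246). Mef2c, Elk4 and Mef2a, of the MADS-box and ternary complex factor families, differed by -0.27 ± 0.16, -0.23 ± 0.14 and -0.20 ± 0.13 (SE).

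Among 14 feedback inhibitors, Errfi1, which encodes an inhibitor of the EGF receptor, was the only gene to pass. It was at 10.56, 10.27 and 10.16 in wild type and at 9.39, 9.66 and 9.15 in ISR2 replicates 1, 2 and 3, a difference of -0.93 ± 0.17 (SE; adjusted p = 0.0186 in limma). Errfi1 no longer passed when replicate 1 or 2 of wild type, or 1 or 3 of ISR2, was left out (adjusted p up to 0.0963) and with every row of the table tested (0.0734). Of the MAP kinase phosphatases listed beside Dusp1, Dusp16 (-0.52 ± 0.14, SE) and Dusp5 (-0.48 ± 0.17) were lower on every ISR2 array without passing (adjusted p = 0.112 and 0.26). Dusp8 was so too (-0.20 ± 0.13), whereas Dusp6 was higher in the ISR2 mean (0.43 ± 0.20, adjusted p = 0.412 in limma). Dusp2, Dusp4, Dusp7 and Dusp10 overlapped. In all, 4 of the 14 listed genes were lower on every ISR2 array, beside 13.9% of all genes. Spred1, an inhibitor of Ras signalling, differed by 0.48 ± 0.21 (adjusted p = 0.37). The list's median was -0.01.

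Other partners of AP-1 held no call. Of 11 measured genes of related leucine zipper factors, 0 passed in limma, and 3 had an unadjusted p under 0.05. Batf2 was the nearest, at 8.52, 8.20 and 8.28 in wild type and 7.91, 7.83 and 7.70 in ISR2 replicates 1, 2 and 3 (-0.52 ± 0.13, SE; adjusted p = 0.0938). Nfil3, a repressor linked to the circadian clock, differed by -0.74 ± 0.24 (adjusted p = 0.204), and Mafg, a small Maf factor, by 0.34 ± 0.12 (adjusted p = 0.25). Fosl1, the remaining Fos family gene, was at 5.74, 6.02 and 6.39 in wild type and at 6.06, 5.66 and 5.69 in ISR2 replicates 1, 2 and 3, overlapping, with a difference of -0.25 ± 0.19 (adjusted p = 0.668). Batf (-0.27), Maff (0.22), Mafk (0.11), Jdp2 (0.08), Atf7 (0.07), Atf2 (-0.02) and Batf3 (-0.02) had overlapping groups.

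Few of the other immediate early genes passed. Of 30 measured in this list, 1 rose and 0 fell in limma, beside 1.79% and 1.23% of all genes. Hbegf and Errfi1, which fell, were counted in other lists. In the ISR2 mean, 19 of the 30 were lower and 11 higher, with a median of -0.10. At an unadjusted p under 0.05, 6 were lower and 2 higher. The gene that rose was Plk3, a polo-like kinase gene induced by serum and stress, at 7.56, 7.69 and 6.97 in wild type and 8.56, 8.72 and 8.32 in ISR2 replicates 1, 2 and 3. The Plk3 difference was 1.12 ± 0.20 (SE; adjusted p = 0.0174), which no longer passed when replicate 1 of either group was left out (adjusted p up to 0.0923) and with every row tested (0.0734). Klf4, a factor of differentiated epithelium, was at 10.14, 10.20 and 10.35 in wild type and at 9.75, 9.74 and 9.47 in ISR2 replicates 1, 2 and 3 (-0.58 ± 0.13, SE; adjusted p = 0.0601). With an intensity trend in the test, without the dimmest 25% of genes or with array weights, Klf4 passed (0.0494, 0.0497 and 0.0259). Klf10, a TGF-beta response factor, differed by 0.47 ± 0.14 (adjusted p = 0.151) and passed with array weights (0.0232). Egr3, a paralog of Egr1, differed by -0.39 ± 0.13 (adjusted p = 0.189).

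Genes commonly taught as AP-1 targets held no fall. Of 17 measured, 1 rose and 0 fell in limma, with a median difference of -0.03; 3 were higher and 1 lower at an unadjusted p under 0.05. The one that rose was Mt1, a metallothionein gene that also responds to metals and glucocorticoids, from 10.28, 9.76 and 9.89 to 11.55, 11.49 and 11.67 (1.6 ± 0.16, SE; adjusted p = 0.000584). Hmox1, the heme oxygenase gene of oxidant defence, was higher on every ISR2 array without passing (0.50 ± 0.12; adjusted p = 0.0706). With array weights or quantile normalization Hmox1 passed (adjusted p = 0.0166 and 0.0362). Mmp13, a collagenase gene, differed by -0.52 ± 0.20 (adjusted p = 0.292) and Vegfa, an endothelial growth factor gene, by 0.65 ± 0.28 (adjusted p = 0.365).

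**Figure D3:**
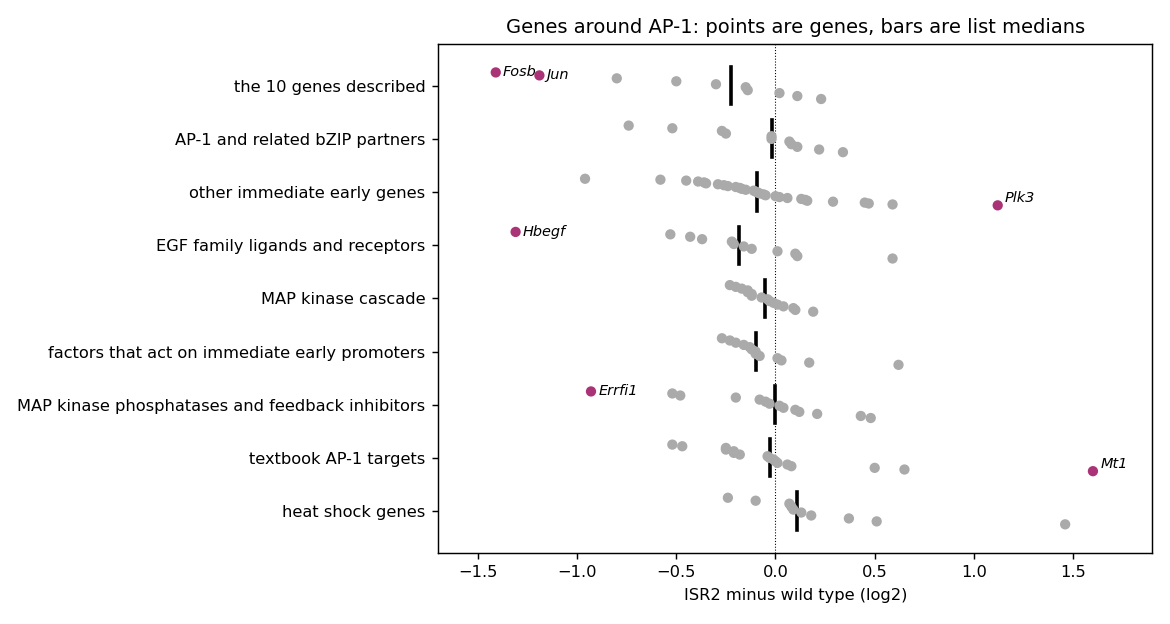
Differences between groups for the 10 genes and for 8 lists around AP-1 (horizontal axis, ISR2 minus wild type in log2 units), with a point for each gene, purple where the adjusted p was under 0.05, and a black bar at each list's median. Single genes passed in some lists (Hbegf -1.31, Errfi1 -0.93, Plk3 1.12, Mt1 1.6), while the list medians lay between -0.22 and 0.11.

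Markers of other cell types and of stress were read on the same arrays. T cell markers moved in the same direction as Jun and Fosb: 5 of 13 fell in limma, 12 of 13 were lower in the ISR2 mean, and the median difference was -0.66. Their list mean was 7.05 to 7.40 in wild type and 6.33 to 6.69 in ISR2, lowest in ISR2 replicate 3. Cd3e, a subunit of the T cell antigen receptor, was at 8.97, 8.74 and 8.37 in wild type and 7.77, 7.6 and 7.47 in ISR2 replicates 1, 2 and 3. This count was 3 when replicate 1 or 2 of wild type or the third ISR2 array was left out, and 2 when the arrays numbered 2 of both groups were left out. The part of T cells in the differences of Jun and Fosb was not tested.

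Of 11 epithelium markers, 0 passed in limma and 4 were lower at an unadjusted p under 0.05, with a median of -0.12; 1 fell with an intensity trend in the test and 2 with array weights. Smooth muscle and stroma markers (16 genes) and endothelium markers (10 genes) held 0 calls, with 0 and 1 at an unadjusted p under 0.05. The endothelium list mean was 6.38 to 6.68 in wild type and 7.30, 6.30 and 7.05 in ISR2 replicates 1, 2 and 3, with a median difference of 0.33, and 3 of its genes rose without ISR2 replicate 2. B and plasma cell markers (9 genes) held 0 calls; 8 were lower in the ISR2 mean, 2 of them at an unadjusted p under 0.05, with a median of -0.35 that was 0.06 with array weights. Myeloid markers (13 genes) held 1 rise, that of Cd14, while 9 were lower in the ISR2 mean, 2 of them at an unadjusted p under 0.05, with a median of -0.07. The lists of enteric neurons and glia (8 genes), red blood cells (2 genes) and pancreatic acinar cells (8 genes) held 0 calls, with 1, 0 and 0 at an unadjusted p under 0.05, and medians of -0.06, 0.03 and -0.20. Of the 7 red blood cell genes listed, none of the haemoglobin genes was measured, so that list says little about blood content.

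Heat shock genes, which respond to stress of tissue, held no fall. Of 10 measured, 0 passed in limma, 1 was higher at an unadjusted p under 0.05, and the median was 0.11. Hspa1a, the inducible Hsp70 gene, was at 7.16, 7.71 and 6.48 in wild type and 8.03, 9.10 and 8.61 in ISR2 replicates 1, 2 and 3. This difference of 1.46 ± 0.33 (SE; adjusted p = 0.0558) passed without wild type replicate 2 (1.75; adjusted p = 0.0308) and after median centring (0.0434). Leaving out ISR2 replicate 2 as well gave an adjusted p of 0.0316. Hspa1b is a near-identical copy of Hspa1a, and signal shared between the pair was not separated here. Hsph1, Hspd1 and Hspa8, which encode other chaperones, differed by 0.51 ± 0.27, 0.37 ± 0.36 and 0.18 ± 0.14 (SE).

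**Figure D4:**
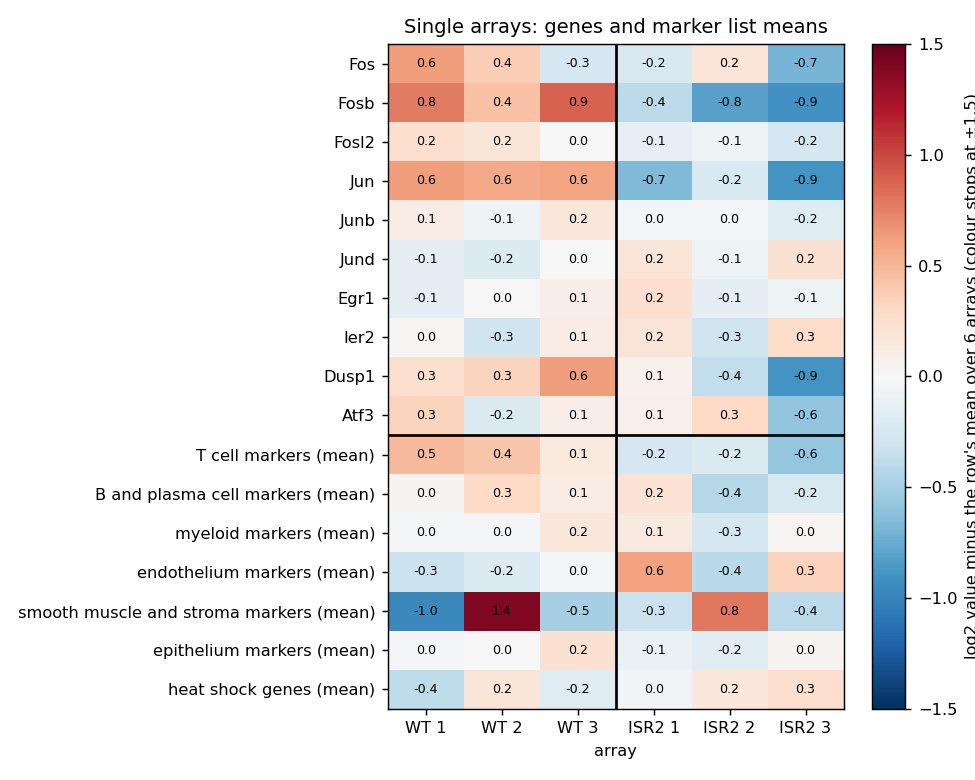
Single arrays (columns) for the 10 genes and for the means of 7 marker lists (rows), coloured by the log2 value minus the row's mean over the 6 arrays. Jun, Fosb and Fosl2 are above their mean on all wild type arrays and below it on all ISR2 arrays, Fosl2 by little in wild type replicate 3. The T cell list mean has the same signs. The smooth muscle and stroma list is highest in wild type replicate 2 (9.47) and ISR2 replicate 2 (8.87).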

How the data were processed

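Biotin-labelled RNA from jejunal mucosa of 3 ISR2 and 3 wild type samples was hybridised to Affymetrix whole-transcript arrays, per the labels. The deposited log2 values were made by the authors with RMA, per the submitters' processing notes; their span of 1.44 to 14.8 shows a log2 scale. RMA brings the arrays to a common scale, so differences are relative to the bulk of genes, and background left in dim genes can compress them. Array medians of the deposited values still ran from 6.04 to 6.19. After median centring, 370 genes rose and 178 fell in limma, beside 356 and 246 without it. The RMA version is not given, and no detection call was used.

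Of 35556 rows, 21789 had 1 gene symbol in the annotation of the array, 1621 several and 12146 none. The brightest row of each gene, by its mean over the 6 arrays, left 19938 genes; 0 of the 10 genes described had several rows. Titles gave the groups. ISR2 was compared with wild type in limma 3.58.1 (lmFit, eBayes; R 4.3.3), two-sided and without covariates; p-values were Benjamini-Hochberg adjusted across the 19938 genes and called under 0.05. Differences of paired genes within an array were compared by exact permutation (scipy 1.17.1). The fit was tested on simulated data. Figures used matplotlib 3.10.9.

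The 10 genes, the lists and the alternatives were chosen with earlier results of these data known. Named were the 10 genes, all AP-1 partners, the 4 genes of smallest p in each pathway list, the 5 genes of nearest profile, and Srebf2. Sgk1, Csrnp1, Egr4, Cd3e and Cd14 were named after their values were seen. So were the phosphatase genes beside Dusp16 and Dusp5, and single smooth muscle and stroma genes. Alternatives were quantile normalization, median centring, array weights, a trend or robust option, leaving out the dimmest 25% of genes, every row tested, the mean or dimmest row of a gene, other thresholds, arrays left out, and the replicate number as a block.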

Additional observations from a re-analysis of the deposited data

How the results depend on the processing

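Jun and Fosb fell in all fits run: in the 6 without 1 array each and in the 12 other fits, with differences of -1.39 to -1.15 for Jun and -1.49 to -1.17 for Fosb in the latter. The count of the 10 genes that passed was 2 in all fits except that without wild type replicate 3 and ISR2 replicate 2, where Fos passed as well. Those are the lowest wild type and the highest ISR2 array for Fos, so that fit had to enlarge its fall. Over all genes, 602 passed in the fit described above, 1268 with array weights, 324 at an adjusted p of 0.01, and 335 to 589 without 1 array at a time. With every row tested, 416 of 35556 rows passed, a count of rows and not of genes. With array weights, 3 EGF family genes fell and 1 rose, 2 other immediate early genes fell and 2 rose, 1 promoter factor (Srf) and 2 AP-1 targets rose, 4 endothelium markers rose, and 2 epithelium and 6 T cell markers fell. The weights in that fit were 4.06, 0.402 and 0.669 for ISR2 replicates 1, 2 and 3. For wild type replicates 1, 2 and 3 they were 0.933, 1.16 and 0.846. The ISR2 side of that fit thus leaned on ISR2 replicate 1. The cause of the shifts was not tested further. Testing every row adjusts over more tests. Differences near 0 changed sign. Without 1 array at a time Egr1 ran from -0.10 to 0.10, Ier2 from -0.01 to 0.29, Atf3 from -0.33 to 0.12, Atf2 from -0.12 to 0.06, Batf3 from -0.11 to 0.04 and Map2k6 from -0.44 to 0.01. With array weights Jdp2 was -0.03 and Batf3 0.04; after median centring Atf2 was 0.02 and Batf3 0.03, and after quantile normalization Batf3 was 0.03. Without wild type replicate 3 and ISR2 replicate 2, Maff was -0.05, Atf2 0.08 and Map2k6 0.02; without wild type replicate 2 and ISR2 replicate 2, Batf3 and Map2k6 were 0.05. Whether the replicate numbers pair the samples could not be told. Deviations of same-numbered arrays from their group means correlated at -0.02, 0.32 and 0.54 across genes. Arrays 2 and 3 of ISR2 correlated best with their own number, but array 1 of ISR2 did not. With the replicate number as a block, 778 genes passed, of which 2 were of the 10 described, and Hspa1a (1.46; adjusted p = 0.00786) and Vegfa (0.65; adjusted p = 0.0301) passed too. Signal of dim genes limits what can be read from Fosb in ISR2.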

Other observations

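Sgk1, a serum- and glucocorticoid-induced kinase gene among the other immediate early genes, had the lowest difference of that list without passing. It was at 8.22, 9.09 and 7.71 in wild type and at 6.67, 8.17 and 7.29 in ISR2 replicates 1, 2 and 3 (-0.96 ± 0.41, SE; adjusted p = 0.362 in limma). Its groups overlapped, and its within-group SD was at the 99.3rd percentile of all genes tested. Csrnp1 and Egr4, nuclear factor genes of the same list, were lower on every ISR2 array by small amounts, at -0.35 ± 0.12 and -0.36 ± 0.13 (SE; adjusted p = 0.234 and 0.259).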
